A study of Homo sapiens with 6 samples.

Results

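The expression of complement genes was examined in NB4 cells, a human acute promyelocytic leukemia cell line that carries the PML-RARA fusion, after treatment with DMSO or Tan I. The genes were 10 complement components, receptors and regulators, chosen by symbol: C1QA, C1QC, C5, CFD, C3AR1, C5AR1, CR1, CD46, CD55 and CD59. All 10 were found among the 18625 genes of the deposited table. They were picked with the difference between Tan I and DMSO in these libraries already known, so their values in this comparison are a description and are not evidence that the pathway responded. RNA-seq was performed in 3 DMSO libraries and 3 Tan I libraries, all collected after 3 days. The Tan I group received 10 μM Tan I (Tanshinone I), a lipid-soluble compound of Dan-shen that was dissolved in DMSO, and the control group received DMSO. The study asked how gene expression changes under Tan I, which it examined as an inhibitor of EZH2, the H3K27 methyltransferase of PRC2. All 6 libraries come from 1 cell line, and the labels do not say whether the replicates of a group were separate cultures. P-values then measure only the spread between these libraries, which may be technical.

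Complement is a cascade of plasma proteins that tags cells and microbes for uptake and can open pores in their membranes. The classical pathway starts when C1q, built from the chains of C1QA, C1QB and C1QC, binds antibody or other ligands, and the alternative pathway is amplified by the protease factor D (CFD). Both lead to cleavage of C3 and then of C5, which release the peptides C3a and C5a. Myeloid cells sense these peptides through C3AR1 and C5AR1 and take up tagged particles through CR1 and through the integrins CR3 and CR4. Human cells protect themselves with CD46, CD55 and CD59 on their membranes. Unlike most complement proteins, which the liver makes, C1q is made largely by macrophages and dendritic cells.

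Values are given as normalized counts, that is, reads per gene divided by 1 size factor per library. The libraries held between 21502760 and 31679138 reads on the listed genes. The replicates of a group were distinct libraries. Within a group the closest pair, DMSO replicates 1 and 3, differed by a chi-square of 9.64 per gene. Sampling noise alone gives about 1. The closest Tan I pair differed by 24.7. The closest pair of all 6, at 5.89, came from different groups, DMSO replicate 1 and Tan I replicate 1. DMSO replicate 2 and Tan I replicate 3 had the highest scores on the first principal component, which held 70.8% of the variance between libraries. Myeloperoxidase (MPO), the main primary granule enzyme of promyelocytes, lay between 33279 and 64107 normalized counts, and 8 of the 9 promyelocyte markers examined were listed. The marker not listed was ELANE. In limma, 16887 genes had means of 10 or more normalized counts and were tested. Of these, 408 (2.42%) had p-values up to 0.05 before adjustment together with a log2 fold change of 0.25 or more in size, with Tan I above DMSO for 223 (1.32%) and below it for 185 (1.10%). This rule is called the unadjusted threshold below. With Benjamini-Hochberg adjustment limma called 0 genes, against 410 at an unadjusted p-value of at most 0.05 alone. The edgeR quasi-likelihood test on the recovered reads also called 0 and DESeq2 called 16. The count of 408 depended on single libraries: it was 180 without DMSO replicate 1, 201 without DMSO replicate 3, 1496 without Tan I replicate 1, 160 without Tan I replicate 2 and 271 without Tan I replicate 3.

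Of the 10 genes, 9 had a mean of at least 10 and were tested, and 2 of these passed the unadjusted threshold, beside a background of 2.42%. C1QA was the 1 of 9 with a higher level, beside 1.32% of all genes tested, and C5 the 1 of 9 with a lower level, beside 1.10%. None of the 9 passed after adjustment in limma or in edgeR, and 1 of the 9, C1QA, did in DESeq2. The libraries of the groups did not overlap for C1QA, C5 and CR1, nor for C1QC, which was below the mean needed for the test. Among all genes tested, 7.89% had groups that did not overlap, 3.92% with Tan I higher and 3.97% with Tan I lower. Since the genes were chosen on this comparison, nothing is read from these counts.

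Promoter sequences of RefSeq (GRCh38.p14) from 250 bases before to 50 bases after the start were read for the genes whose libraries did not overlap, to show what lies at their starts. Of the 10 genes, 9 matched an entry, and C1QC did not. In all, 5 short motifs were searched on both strands. They were GAGGAA, the core bound by PU.1 and related ETS factors, GCGTG, the core bound by the AHR complex, TGACNNNGC, the core of the antioxidant response element, TTCNNNGAA, the STAT type element, and TGCTGAC, a MAF site that can overlap the antioxidant element. Of all 35116 promoter windows, 27.9%, 36.5%, 13.3%, 7.66% and 4.19% held them, in the same order. The sequences of C1QA, C5 and CR1 from the first window of each are shown 5′ to 3′ on the strand of the gene, with motif matches in capitals.
C1QA (chr1:22636213-22636512, + strand): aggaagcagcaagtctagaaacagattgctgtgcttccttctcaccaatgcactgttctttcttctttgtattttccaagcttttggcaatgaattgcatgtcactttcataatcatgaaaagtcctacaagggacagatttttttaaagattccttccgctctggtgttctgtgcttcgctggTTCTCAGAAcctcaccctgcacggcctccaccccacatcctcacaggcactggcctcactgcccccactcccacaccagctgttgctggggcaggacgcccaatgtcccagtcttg
C5 (chr9:121074816-121075115, - strand): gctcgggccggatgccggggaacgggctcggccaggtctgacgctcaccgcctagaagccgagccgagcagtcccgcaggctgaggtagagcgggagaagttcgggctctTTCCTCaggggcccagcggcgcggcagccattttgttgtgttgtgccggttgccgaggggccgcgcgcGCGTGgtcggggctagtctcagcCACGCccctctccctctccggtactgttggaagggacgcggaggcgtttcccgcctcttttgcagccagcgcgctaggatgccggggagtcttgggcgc
CR1 (chr1:207495907-207496206, + strand): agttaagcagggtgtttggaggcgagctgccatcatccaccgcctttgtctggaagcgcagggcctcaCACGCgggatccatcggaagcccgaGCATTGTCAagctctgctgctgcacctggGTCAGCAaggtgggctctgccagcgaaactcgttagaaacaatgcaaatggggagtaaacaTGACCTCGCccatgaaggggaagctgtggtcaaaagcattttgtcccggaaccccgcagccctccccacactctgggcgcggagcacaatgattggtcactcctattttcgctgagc

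The C1QA window shown held 1 match to the STAT type element, which begins 66 bases before the start, and no match to the other 4 motifs. The other C1QA window, at another annotated start, holds the same match 231 bases before that start. CD59 held a match with the same letters, TTCTCAGAA. The C5 window shown held 1 match to the ETS core and 2 to the AHR core. The other C5 window, at another annotated start (chr9:121050226-121050525), held no motif match. The CR1 window held 2 matches to the antioxidant element, 1 to the MAF site and 1 to the AHR core. C5AR1 held 2 ETS cores and CD46 held 1 AHR core, and no match was found in the windows of CD55, C3AR1 and CFD. In CpG content the windows shown differed widely, with 4 CpG in C1QA, 33 in C5 and 15 in CR1. The median over all windows was 14. Fewer CpG than in C1QA were found in 24.5% of all windows, and fewer than in the C5 window shown in 82.8%. The other C5 window held 1 CpG, so the CpG content of C5 depends on the start taken. These matches describe letters in a short window and were not tested for binding.

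The largest difference was in C1q, the recognition molecule of the classical pathway. C1QA (ENSG00000173372, chr1:22635077-22639678 on GRCh38, + strand, 3 exons in the canonical transcript) encodes the A chain. It had 14.9, 21.2 and 14.8 normalized counts in DMSO replicates 1, 2 and 3, and 139.8, 184 and 277 in Tan I replicates 1, 2 and 3. Every Tan I library was far above every DMSO library. The reads behind these values were 16, 22 and 19 in DMSO and 143, 175 and 208 in Tan I. The means were 17.0 ± 3.64 and 201 ± 70.2 (SD, n = 3 each), 11.8 times as high in Tan I, with a log2 fold change of 3.45 (SE 0.31, 95% interval 2.72 to 4.17) on the log2(normalized count + 1) scale. C1QA ranked 1 by log2 fold change among the 16887 genes tested, and the next largest value was 1.66, for CYP1A1, an enzyme of xenobiotic metabolism.

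C1QC (ENSG00000159189, chr1:22643014-22648110, + strand, 3 exons) encodes the C chain and lies next to C1QA in the same orientation. Its values were low, at 3.73, 2.89 and 1.56 normalized counts in DMSO and 13.7, 15.8 and 13.3 in Tan I. All 3 Tan I libraries were above all 3 DMSO libraries here too, from 4, 3 and 2 reads in DMSO and 14, 15 and 10 in Tan I. The mean was 5.23 times as high in Tan I as in DMSO. In a fit of all listed genes without the filter, its log2 fold change was 2.08 (SE 0.44), which was past the unadjusted threshold but not called after adjustment. With C1QC tested in this way, 3 of the 10 genes passed the unadjusted threshold, 2 with higher and 1 with lower levels. In that fit 446 of all 18625 genes passed, 239 with higher and 207 with lower levels. Nothing is read from the 3, since the genes were chosen on this comparison. C1QB, the gene of the B chain, is not listed in the table used here.

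The share of the C1q reads that fell on C1QC was lower in Tan I by its point value. Of the reads on C1QA and C1QC together, C1QC took 9 of 66 in DMSO, or 13.6% (exact Clopper-Pearson 95% interval 6.43% to 24.3%), and 39 of 565 in Tan I, or 6.90% (4.95% to 9.32%). These intervals, from reads pooled over the 3 libraries of a group, overlap, and they cover counting error only. By library the share was 20%, 12% and 9.52% in DMSO replicates 1, 2 and 3. In Tan I replicates 1, 2 and 3 it was 8.92%, 7.89% and 4.59%, each below every DMSO share. The DMSO shares rest on 4, 3 and 2 C1QC reads, and the difference in share was not tested. A gene model of GENCODE release 44 that runs through both C1QA and C1QC could share their reads, and the annotation release that the authors counted on is not given in the sources used here.

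**Figure D1:**
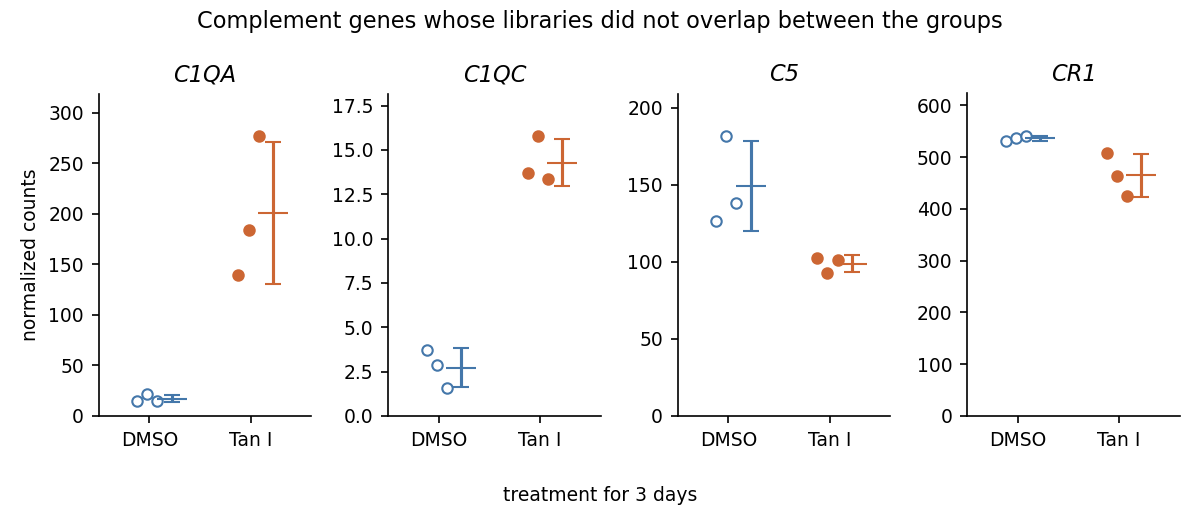
Normalized counts of C1QA, C1QC, C5 and CR1 in each DMSO library (open circles) and each Tan I library (filled circles), with the group mean and SD as a bar beside the points (n = 3 each), each on its own linear axis from 0. C1QA and C1QC were higher in all Tan I libraries, C5 and CR1 were lower in all of them.

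C1q is a product of macrophages, so markers of monocytes and macrophages were read beside it. Of the 19 markers examined, 9 are listed in the table used here, and 10 are not, among them CD163, MRC1, MARCO and CD68. The lowest mean of any listed gene was 5.90 normalized counts. Why a given gene is missing was not tested, so a missing marker is not read as one with a low level. Of the 6 markers tested, 0 passed the unadjusted threshold upwards and 1 passed downwards, beside 1.32% and 1.10% of all genes tested. The summed level of the 9 listed markers overlapped between the groups, from 877 to 973 normalized counts in DMSO and from 915 to 1058 in Tan I. The defining markers CD14 and CSF1R had low levels. CD14, the coreceptor for lipopolysaccharide, had 11.2, 17.3 and 5.47 normalized counts in DMSO and 16.6, 14.8 and 18.7 in Tan I. CD14 and CSF1R had log2 fold changes of 0.64 and 0.46 that did not pass. MS4A7, a membrane protein of macrophages, fell from 119, 125 and 96.9 to 77.2, 51.6 and 52.0 normalized counts, a log2 fold change of -0.92 (SE 0.24) that passed the unadjusted threshold (adjusted p = 0.999 in limma). STAB1, a scavenger receptor, had 532, 510 and 459 normalized counts in DMSO and 649, 645 and 553 in Tan I, and its groups did not overlap, with a log2 fold change of 0.30 that did not pass the threshold. Of the 8 promyelocyte markers tested, 2 passed the unadjusted threshold downwards, beside 1.10% of all genes tested. Upwards 0 passed, 6 did not pass, and 0 of the 8 passed after adjustment in limma. The 2 were MPO and CTSG, the genes of myeloperoxidase and cathepsin G, with log2 fold changes of -0.78 (SE 0.15) and -0.69 (SE 0.25), and the other 6 lay between -0.32 for PRTN3 and 0.07 for CD33. The summed level of the 8, most of which is MPO, ran from 72125 to 78516 normalized counts in DMSO and from 42797.5 to 51224 in Tan I. The part of these markers in the C1QA result was not tested. In bulk RNA, a change in the share of cells of one type and a change in RNA per cell cannot be told apart.

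The neighbours of the C1q genes on chromosome 1 were read to see whether the difference extended along the chromosome. Of the 5 nearest listed genes on each side, 10 in all and from 32.9 to 699 kb away, 0 passed the unadjusted threshold in limma. Their log2 fold changes ran from -0.49 for LUZP1 to 0.28 for EPHA8, a receptor kinase gene and the nearest of them. EPHB2, the nearest on the other side, 49.2 kb away, had a log2 fold change of -0.26. LUZP1 passed downwards when Tan I replicate 1 was left out, at -0.87. None of the 10 had groups that did not overlap.

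C5 (ENSG00000106804, chr9:120932987-121075195, - strand, 41 exons) encodes the component whose cleavage yields C5a and starts the pore. It had 127, 182 and 138 normalized counts in DMSO and 103, 92.7 and 101 in Tan I. All Tan I libraries were below all DMSO libraries, and they were closer to each other than the DMSO libraries were. The means were 149 ± 29.1 and 98.9 ± 5.38 (SD, n = 3 each), 0.664 times the DMSO level, with a log2 fold change of -0.57 (SE 0.20, 95% interval -1.03 to -0.11). C5 no longer passed the unadjusted threshold without DMSO replicate 2, at -0.42, or without Tan I replicate 2, at -0.53. CNTRL, on the other strand, overlaps C5 and had a mean of 3762 normalized counts, and no strand setting is given in the sources used here, so their reads cannot be told apart where their exons meet.

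CFD (ENSG00000197766, chr19:859453-867884, + strand, 5 exons) encodes factor D, a serine protease that myeloid cells and fat cells make. It had 86.7, 137 and 86.0 normalized counts in DMSO and 57.7, 86.4 and 109 in Tan I. The groups overlapped, with DMSO replicate 2 highest in its group and Tan I replicate 3 highest in the other. The log2 fold change was -0.30 (SE 0.30, 95% interval -1.01 to 0.41). The gene MED16 on the other strand overlaps CFD, which limits the assignment of reads in the same way.

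The receptors of the peptides did not pass. C3AR1, the receptor of C3a, had 41.0, 104 and 41.4 normalized counts in DMSO and 40.1, 40.0 and 70.7 in Tan I. In 4 of the 6 libraries its level was nearly the same, and DMSO replicate 2 and Tan I replicate 3 were above the others. Its log2 fold change was -0.21 (SE 0.43, 95% interval -1.21 to 0.79) and turned to 0.23 without DMSO replicate 2. C5AR1, the receptor of C5a through which neutrophils and monocytes are attracted, had 96.0, 203 and 132 normalized counts in DMSO and 127, 153 and 171 in Tan I. Its DMSO libraries spread over a wider range than its Tan I libraries and enclosed them. The log2 fold change was 0.12 (SE 0.29, 95% interval -0.55 to 0.79) and turned to -0.14 without DMSO replicate 1. C5AR2, the second receptor of C5a, was not among the 10 chosen genes but had the same order of libraries, with 139.9, 294 and 139.9 normalized counts in DMSO and 165, 191 and 196 in Tan I.

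**Figure D2:**
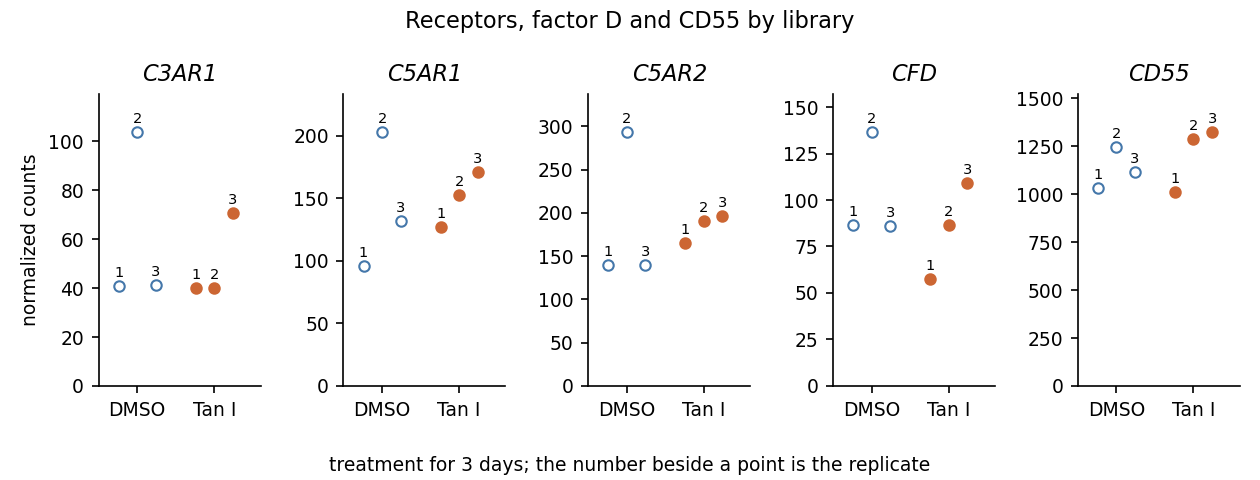
Normalized counts of C3AR1, C5AR1, C5AR2, CFD and CD55 in each library, by treatment, with the replicate number above each point and linear axes from 0. DMSO replicate 2 was the highest DMSO library and Tan I replicate 3 the highest Tan I library for each of these genes, and the groups overlapped.

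The order of libraries just described was common among all genes tested and was found in the chosen genes too. C1QA, CFD, C3AR1, C5AR1 and CD55, 5 of the 10, were highest in DMSO replicate 2 within DMSO and in Tan I replicate 3 within Tan I. CD46 and CD59 (2 of the 10) were lowest in both. These are the libraries with the highest scores on the first principal component. Among the 16887 genes tested, 5913 had the first order and 5417 (32.1%) the second. With both libraries left out, an alternative chosen after seeing the data, C1QA had a log2 fold change of 3.35, C5 of -0.44, C3AR1 of -0.04 and C5AR1 of 0.30.

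CR1 (ENSG00000203710, chr1:207496147-207641765, + strand, 47 exons) encodes complement receptor 1, which binds C3b and C4b and also speeds their breakdown. It had 531, 536 and 541 normalized counts in DMSO and 507, 463 and 424 in Tan I. The DMSO libraries were nearly identical, the highest being 1.02 times the lowest, and every Tan I library was below them. The means were 536 ± 5.00 and 465 ± 41.6 (SD, n = 3 each). The log2 fold change was small, at -0.21 (SE 0.12, 95% interval -0.50 to 0.08), and did not pass the unadjusted threshold, although the groups did not overlap. Over the 19 alternatives it kept its sign and stayed between -0.28 and -0.15, and it passed the threshold in 0 of them.

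The membrane regulators were the most abundant of the 10 genes and had similar levels in both groups. CD46, the membrane cofactor with which factor I cuts C3b and C4b, had 7317, 6101 and 7011 normalized counts in DMSO and 6950.5, 6264 and 5294 in Tan I. The groups overlapped, and the log2 fold change was -0.15 (SE 0.14, 95% interval -0.48 to 0.19). CD55, decay accelerating factor, which takes convertases apart, had 1032, 1247 and 1118 normalized counts in DMSO and 1011, 1290.0 and 1327 in Tan I, a log2 fold change of 0.09 (SE 0.15, 95% interval -0.25 to 0.43). CD59, which blocks the last step of the pore, had 1918, 1732 and 1928 normalized counts in DMSO and 1904, 1994 and 1672 in Tan I. Its log2 fold change was -0.0043 (SE 0.12, 95% interval -0.28 to 0.27). The 3 libraries a group leave room for changes of CD59 within this interval.

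CD55, CR1 and CD46 lie in the cluster of complement regulators on chromosome 1, together with CR2. Of the 5 nearest listed genes on each side of this cluster, 9 were tested and 0 passed the unadjusted threshold in limma. LAMB3, a laminin chain gene 1819 kb away, was the only one of them whose groups did not overlap, with a log2 fold change of 0.28. The nearest listed gene, the noncoding MIR29B2CHG, had a log2 fold change of -0.41 and overlaps CD46 on the other strand in GENCODE. Its mean level was 119 normalized counts, against 6489.7 for CD46.

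To compare levels between genes, the normalized counts were divided by the length of the canonical transcript. On this per-kb scale of levels the order of the mean levels in DMSO was CD46, CD55, CD59, CFD, C5AR1, CR1, C5, C3AR1, C1QA and C1QC. CD46 had 2051 ± 191 normalized counts per kb, CD55 had 437 ± 41.8 and CD59 had 246 ± 14.6 (SD, n = 3 each). The libraries of these 3 genes did not overlap with each other in either group. CFD, C5AR1 and CR1 followed at 86.6 ± 24.5, 61.9 ± 23.5 and 54.0 ± 0.503. In DMSO the libraries of CFD overlapped with those of C5AR1, C5AR1 with CR1, C5 with C3AR1 and C3AR1 with C1QA, while those of CR1 lay above those of C5. In Tan I the order was the same except for C1QA, which moved from place 9 to place 4 with 184 ± 64.3 normalized counts per kb. One of its 3 Tan I libraries reached the range of CD59. C1QC stayed in place 10 at 12.3 ± 1.16 normalized counts per kb. With the length of all annotated exons in place of the canonical transcript, the order by the mean over all 6 libraries changed. C1QA was in place 6 rather than 4. CD59, at 176 normalized counts per kb, came above CD55, at 114, and C3AR1 came above C5.

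**Figure D3:**
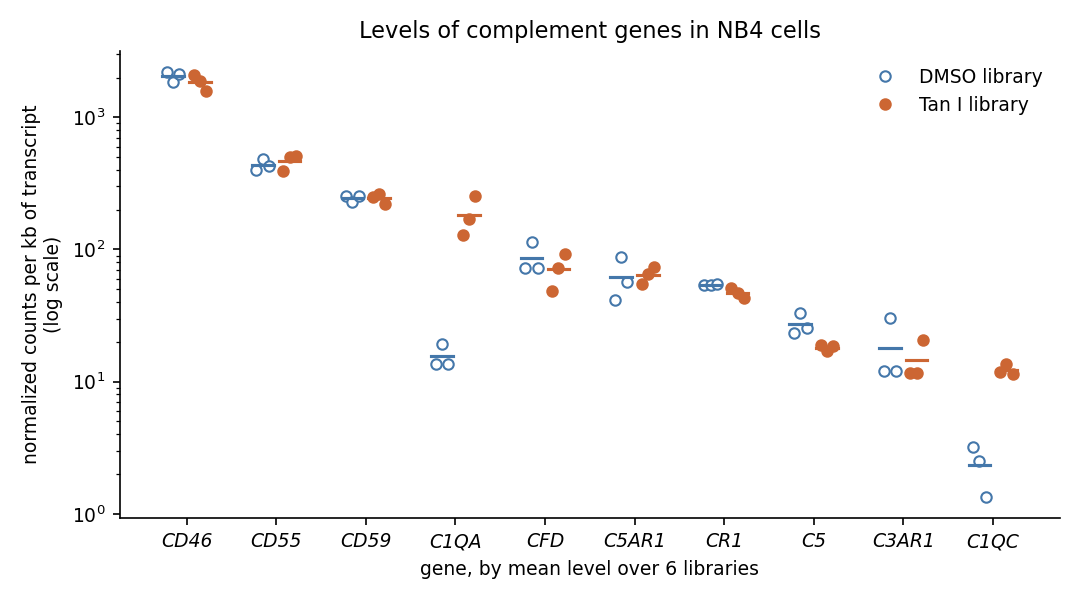
Normalized counts per kb of canonical transcript (log scale) of the 10 complement genes in each DMSO library (open circles) and each Tan I library (filled circles), with short lines for the group means, ordered by the mean over all 6 libraries. C1QA moved from a mean of 15.6 in DMSO to 184 in Tan I, while the membrane regulators CD46, CD55 and CD59 stayed on top with overlapping groups.

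The rest of the pathway was read from a list of 52 further complement genes, written from general knowledge. Of these, 25 are listed in the table used here and 22 were tested. In limma 1 passed the unadjusted threshold upwards and 0 passed downwards, 1 of 22 beside a background of 2.42%, and 0 passed after adjustment. The median log2 fold change of the 22 was 0.03, beside -0.0016 over all genes tested. It was positive for 12 of them.

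The gene that passed was ITGAX (chr16:31355134-31382999), the alpha chain of CR4, an integrin that binds cleaved C3b. It had 1977, 1862 and 2080.0 normalized counts in DMSO and 2743, 2696 and 2318 in Tan I. All 3 Tan I libraries were above all 3 DMSO libraries. The log2 fold change was 0.39 (SE 0.12, 95% interval 0.12 to 0.66) with an unadjusted p-value of 0.0116 and an adjusted p-value of 0.999 in limma. ITGAX did not pass without Tan I replicate 2, at 0.36, or after scaling all libraries to one total, at 0.33. Its partner ITGB2, the beta chain shared by CR3 and CR4, had a log2 fold change of 0.15 (95% interval -0.14 to 0.44). ITGAM, the alpha chain of CR3 known as CD11b, had -0.10 (95% interval -0.40 to 0.21), with 433, 499.9 and 519 normalized counts in DMSO and 478, 443 and 433 in Tan I. The difference between ITGAX and ITGAM was not tested.

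The other receptors and C1q-binding proteins that were tested did not pass. Their log2 fold changes were 0.03 for C5AR2, -0.15 for CR2, the C3d receptor of B cells, -0.23 for CD93, 0.12 for C1QBP, 0.22 for calreticulin (CALR) and -0.19 for LAIR1, an inhibitory receptor. LRP1, a scavenger receptor, was below the mean needed for the test and lower in every Tan I library, with 13.1, 11.6 and 9.38 normalized counts in DMSO and 5.86, 8.43 and 6.67 in Tan I. VSIG4, a macrophage receptor of C3b, was also below that mean and its groups overlapped.

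Among the genes that start the classical and lectin pathways, 6 were tested and 0 passed in limma. C1R and C1S, the proteases that join C1q in the C1 complex, had log2 fold changes of 0.22 (95% interval -0.16 to 0.61) and -0.09 (95% interval -0.51 to 0.34). C2 had 0.23, C4A 0.02, FCN1, the ficolin of myeloid cells, 0.12 and MASP2, a protease of the lectin pathway, -0.74. MASP2 rested on 7 reads in Tan I replicate 3. C4A has a near-identical copy, C4B, so its reads are uncertain once reads at several locations are removed. COLEC11 was below the mean needed for the test.

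C3, the central component, had a log2 fold change of 0.15 (95% interval -0.21 to 0.50), and of the alternative pathway CFB had -0.23 and properdin (CFP) 0.03. C8G was the only terminal component tested, at -0.04. Of the soluble regulators, SERPING1, the C1 inhibitor, had -0.08 and clusterin (CLU) 0.38 (95% interval -0.09 to 0.85). CLU passed the unadjusted threshold only without Tan I replicate 1, at 0.52, among the 19 alternatives run for it.

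**Figure D4:**
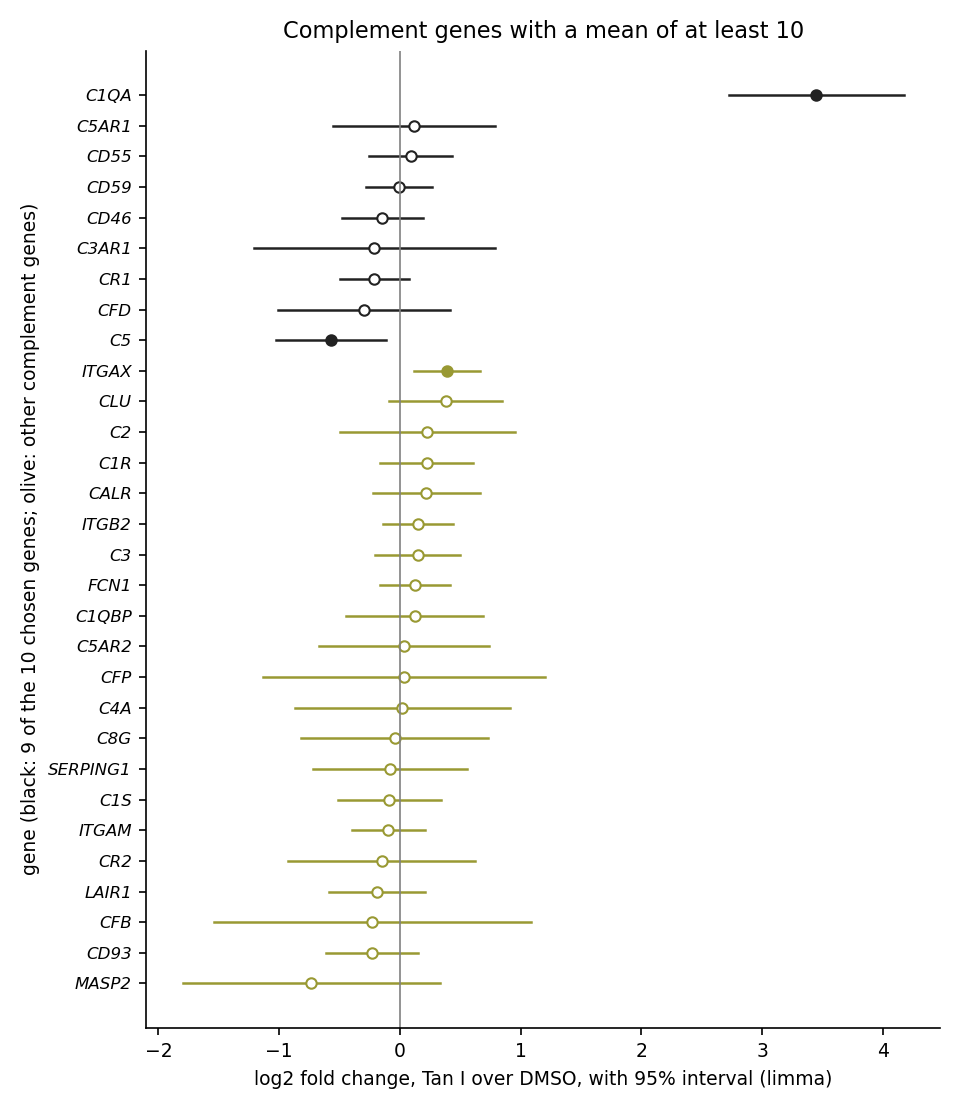
Log2 fold changes (Tan I against DMSO, horizontal axis) and their 95% intervals from limma for the 9 tested genes of the 10 (black) and 21 of the 22 other complement genes tested (olive). Filled points passed the unadjusted threshold: C1QA, C5 and ITGAX. Apart from C1QA at 3.45, the values lay between -0.74 and 0.39.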

How the data were processed

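RNA-seq libraries of NB4 cells were used, 3 treated with DMSO and 3 with 10 μM Tan I for 3 days. According to the study's methods, paired-end reads were aligned to GRCh38 with STAR, reads at several locations were removed, genes were counted with featureCounts, and DESeq2 was used. Versions are not given in the sources used here. The signal values deposited by the authors are counts divided by 1 size factor per library. In every library the value of 1 read could be found from the lowest values, and 100% of values came out as whole reads (tolerance 0.001 reads). The table also holds the authors' own comparison (fold changes, statistics and p-values) and a mean, which were not used.

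Tan I was compared with DMSO with limma (version 3.58.1, run under R 4.3.3, with moderated variances that follow the mean) on log2(normalized count + 1), for 16887 genes whose mean was 10 or more. Fold changes of low genes are understated on this scale. Benjamini-Hochberg adjustment of p-values covered all genes tested. Alternatives used edgeR 4.0.16 and DESeq2 1.42.0 on recovered reads. The fits were checked on simulated data. The complement genes, the further lists, the motifs and the tests were chosen with earlier results of these data known. Named were the 10 genes, each other complement gene with a mean of at least 10, and those of the other lists that passed the unadjusted threshold or did not overlap between groups. Of the other complement genes, 1 is counted but its value is not reported here. Others, such as LRP1, VSIG4, COLEC11, EPHA8, EPHB2 and CYP1A1, were chosen after their values were seen. Marker lists of promyelocytes, monocytes and macrophages, mature neutrophils, dendritic cells, B cells, T and NK cells, erythroid cells and stromal cells were read. Distances between neighbouring genes are from RefSeq on GRCh38. Positions and lengths are from GENCODE release 44 on GRCh38, which held 99.6% of the identifiers.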

Additional observations from a re-analysis of the deposited data

How the results depend on the processing

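C1QA passed the unadjusted threshold in all 19 alternatives run for it, with log2 fold changes from 2.92 to 3.68. After adjustment it passed in 3 of them. These were both DESeq2 fits and the limma fit without both libraries with the highest component scores (adjusted p = 0.0416). Its adjusted p-value ran from 1.3e-16 in DESeq2 to 0.99996 in limma without Tan I replicate 2. Of 620 single-gene values over 33 genes, 610 kept their side of the unadjusted threshold, 5 lost the call (3 of C5, 2 of ITGAX), 5 gained it (4 of STAB1, 1 of CLU) and 0 reversed a call. The sign of an uncalled gene turned in 41 of them. C5 kept its sign throughout and lost its call also without both libraries with the highest component scores. With a log2 fold change of at least 1 in place of 0.25, 49 genes passed in all, 1 of the 10 complement genes, 0 of the further complement genes and 0 macrophage markers. Without both libraries with the highest component scores, 1 of the 10 genes and 2 macrophage markers passed, beside 477 of 16887 genes. The markers were MS4A7 with a lower and STAB1 with a higher level. In DESeq2, 2 macrophage markers passed the unadjusted threshold, MS4A7 with a lower and STAB1 with a higher level. This held on the genes tested, where 420 of 16887 passed, and on all listed genes, where 427 of 18625 passed. After adjustment 0 of these markers passed in either fit. Rescaling to the same total left 0 of the further complement genes. Without the filter on low genes, in limma, DESeq2 and edgeR alike, 3 of the 10 genes passed, C1QC being the one added. In the same order, 446, 427 and 436 of all 18625 genes passed in these fits. Leaving out 1 library gave 160 to 1496 genes in all, 1 to 2 of the 10 genes, 0 to 2 further complement genes, 1 to 2 macrophage markers and 0 to 1 neighbours of the C1q genes. The cause was not tested.

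Replicate numbers are shared by the groups, but the deviations of libraries with the same number correlated at 0.75, -0.09 and -0.45, so the numbers were not taken as pairs. With the replicate number as a block, 348 genes passed, and 1 neighbour of the C1q genes, LUZP1 at -0.49, where the unblocked fit called 0. With few reads, as for C1QC, changes of less than the spread between libraries were not detectable. The leave-out of 2 libraries and the fits of DESeq2 and edgeR on all listed genes were chosen after seeing the data.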

Other observations

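Markers of cell types other than promyelocytes and macrophages were read as well, and 0 of them passed the unadjusted threshold in limma. Of the mature neutrophil markers 3 of 11 are listed, CSF3R, the receptor of G-CSF, CAMP and CXCR2, with a summed level of 2178 to 2461 normalized counts in DMSO and 1780.3 to 2225 in Tan I. Of the B cell markers 3 of 5 are listed, with 516 to 801 in DMSO and 556 to 914 in Tan I, and of the T and NK cell markers 5 of 7, with 575 to 637 and 615 to 748. CD2, a T cell adhesion molecule, was above every DMSO library in each Tan I library, with a log2 fold change of 0.37. Of the dendritic cell markers 1 of 6 is listed (LILRA4), of the erythroid markers 1 of 7 (ALAS2) and of the stromal and endothelial markers 2 of 6 (COL1A1 and VWF). The groups overlapped for each of these 4 genes.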
